A study of Mus musculus with 4 samples.

Results

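The interleukin-1 (IL-1) family cytokines were examined in total RNA sequencing of newborn mouse epidermis. The members were 5 genes taken by name, Il1a, Il1b, Il1rn, Il18 and Il33, and the 4 genes of the IL-36 branch, which the deposited tables list under older symbols: Il1f5 (now Il36rn), Il1f6 (Il36a), Il1f8 (Il36b) and Il1f9 (Il36g). All 9 were found among the 54752 genes of the tables. The rule that selects them uses names alone, but the members and gene lists were chosen with earlier results of these data known. Epidermis came from C57BL/6 pups at postnatal day 0 (P0), 2 labelled Skiv2l ctl (controls) and 2 labelled Skiv2l fl/fl K14-Cre (called knockouts here). In the knockouts, Cre recombinase is made constitutively from the keratin 14 promoter and deletes the floxed Skiv2l gene in keratinocytes, while epidermal cells without that promoter's activity keep it. Skiv2l encodes the helicase of the SKI complex, which feeds RNA to the cytoplasmic exosome. The control label covers pups without Cre that are fl/+ or fl/fl at Skiv2l, and fl/+ pups with K14-Cre. Which of these each control was is not given per sample, so a control may also carry 1 deleted allele and Cre. The study made this comparison to look for what drives epidermal overgrowth without Skiv2l.

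IL-1 family cytokines are alarm signals of barrier tissues, and keratinocytes are a main source of them. Each agonist binds its own receptor chain, IL1R1 for IL-1α and IL-1β, IL1RL2 for the IL-36 agonists, ST2 (Il1rl1) for IL-33 and IL18R1 for IL-18, and most of them then recruit the shared chain IL1RAP and the adaptor MyD88. The receptor antagonists IL-1Ra (Il1rn) and IL-36Ra (Il1f5) occupy a receptor without signaling. Several members are made as precursors, IL-1β and IL-18 being cleaved by caspase-1, and so a transcript level is not a level of active cytokine.

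The DNA just before the start sites of the members that rose is shown first, with that of Il1a for contrast. It was searched for exact matches to 2 short motifs only, so any other shared motif would be missed. RefSeq windows on GRCm38.p6 were held for 8 of the 9 members, 12 windows in all, each running from 250 bases before to 50 bases after a start site. The 250 bases before the start are printed 5′ to 3′ on the gene's strand, with matches to 2 motifs in capitals. Il1f6 had no entry. The motifs, read on both strands, were AP-1 (TGANTCA) and the TATA box (TATAAA).
Il33 upstream start, chr19:29924863-29925112, plus strand: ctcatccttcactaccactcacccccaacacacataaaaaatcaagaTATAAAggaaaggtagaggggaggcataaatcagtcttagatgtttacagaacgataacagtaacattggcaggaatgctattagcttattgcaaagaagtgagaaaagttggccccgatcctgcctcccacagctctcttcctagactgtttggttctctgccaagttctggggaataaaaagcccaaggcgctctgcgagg
Il33 downstream start, chr19:29945540-29945789, plus strand: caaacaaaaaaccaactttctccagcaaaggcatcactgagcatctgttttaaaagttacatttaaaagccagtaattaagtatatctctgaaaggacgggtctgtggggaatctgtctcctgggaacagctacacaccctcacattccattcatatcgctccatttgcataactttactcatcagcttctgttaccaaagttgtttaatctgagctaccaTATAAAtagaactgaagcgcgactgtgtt
Il1f9, chr2:24186226-24186475, plus strand: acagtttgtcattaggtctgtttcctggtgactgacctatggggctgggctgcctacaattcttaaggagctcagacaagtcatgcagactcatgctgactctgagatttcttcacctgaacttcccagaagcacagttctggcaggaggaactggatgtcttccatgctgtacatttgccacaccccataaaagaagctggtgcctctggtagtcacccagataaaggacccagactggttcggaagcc
Il1f8, chr2:24152922-24153171, plus strand: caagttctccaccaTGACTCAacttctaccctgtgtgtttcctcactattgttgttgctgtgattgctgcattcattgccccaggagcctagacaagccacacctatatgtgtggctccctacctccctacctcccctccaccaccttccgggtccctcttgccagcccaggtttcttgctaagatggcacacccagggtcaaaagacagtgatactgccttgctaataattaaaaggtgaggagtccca
Il1a, chr2:129309973-129310222, minus strand: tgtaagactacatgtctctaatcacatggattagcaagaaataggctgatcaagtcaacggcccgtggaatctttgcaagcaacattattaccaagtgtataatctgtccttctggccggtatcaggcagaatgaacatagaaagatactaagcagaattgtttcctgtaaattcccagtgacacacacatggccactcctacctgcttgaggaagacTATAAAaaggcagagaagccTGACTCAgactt
The downstream Il33 window held TATAAA from base 222 and the Il1a window from base 219, close before the start site. The upstream Il33 window held it from base 48, farther from the start. Il1f8 held the AP-1 letters TGACTCA from base 15 and Il1a from base 239. The Il1f9 window held neither motif. Over the 12 windows of members, 3 held AP-1 and 6 held the TATA box, and no match overlapped another. Matches to the TATA box close before the start were those of Il1a (-32), Il1b (-31) and downstream Il33 (-29). The others lay at -203 (upstream Il33), at -175 (Il18) and 14 bases after the start (Il1rn). Those of Il18 and Il1rn were on the opposite strand (TTTATA). Some members gave more than 1 window, so the 12 are not independent. Of all 32851 RefSeq windows of 300 bases, 7.81% held AP-1 and 13.6% the TATA box. Neither motif was common to all 4 windows of the members that rose. A match is a description of the letters and not evidence of binding.

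Expression is given as FPKM, sequenced fragments per kilobase of transcript scaled to the size of the library, which the authors computed and which allows levels of different genes to be compared within a library. The ratio of the deposited coverage to FPKM corresponded to 5.843 to 6.274 aligned gigabases per library. Genes above an FPKM of 0.5 numbered 17384 to 17761 in 3 libraries and 16138 in knockout 2. Differences were tested with limma on log2(FPKM + 1) over 13609 protein-coding genes above an FPKM of 0.5 in at least 1 library, and a gene was called at an adjusted p below 0.05. Fold changes are on this scale, knockout minus control, with their standard error (SE), and understate the change of low genes. Skiv2l itself, chromosome 17, had FPKM of 19.3 and 19.1 in controls and 10.8 and 8.55 in knockouts (log2 fold change -0.92 ± 0.12 SE, limma adjusted p = 0.00368). Its call was lost when either control was left out. The paper reports depletion of SKIV2L protein by Western blot in P0 epidermis of this genotype, a measure of protein and not of RNA. All 9 keratinocyte markers examined were detected, Krt5 at an FPKM of 1759 to 2075.

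Of the 9 members, 4 were called higher in Skiv2l fl/fl K14-Cre pups, Il33, Il1f6, Il1f9 and Il1f8, and 0 were called lower by limma. Il1f10, a cytokine of the family that is not among these 9, was called lower and is described with the gene cluster below. At an unadjusted p below 0.05, 1 member, Il1rn, was lower. Among all genes tested, 8.99% were called higher and 25.4% lower. Because the members were chosen with earlier results known, their count beside these shares is a description. The median log2 fold change was -0.20 over all genes and -0.06 over the members. Scaling each library to the same median moved the median of all genes to -0.03, a shift of 0.17, and the calls to 13.9% higher and 11.9% lower. The same 4 members were called after that scaling. In all 4 of them both knockouts were above both controls, as for 18.2% of all genes tested. All 9 members passed the filter, Il1b through 1 control library alone.

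**Figure D1:**
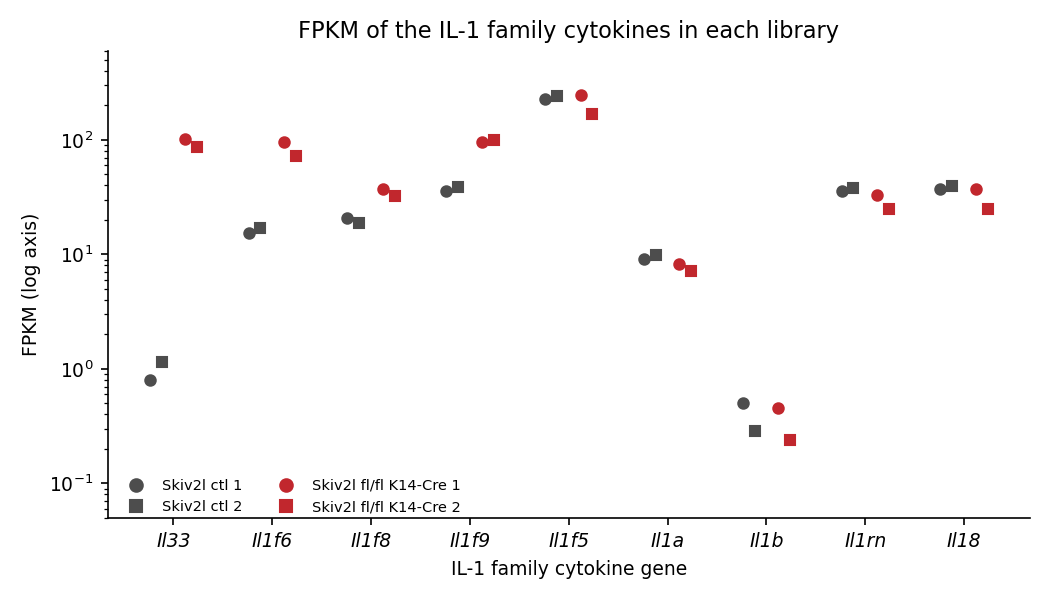
FPKM (log axis) of the 9 IL-1 family cytokine genes in the 2 Skiv2l ctl (gray) and 2 Skiv2l fl/fl K14-Cre (red) libraries, 1 point per pup. Il33, Il1f6, Il1f8 and Il1f9 have both red points above both gray points, with the widest gap for Il33, near 1 in controls and at 86.5 and 102 in knockouts.

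The largest difference among the members was that of Il33, an alarmin of the nucleus of epithelial cells that acts through ST2. Il33 (ENSMUSG00000024810.16, chromosome 19, 29925114 to 29960718, plus strand, GRCm38) had FPKM of 0.805 and 1.14 in controls, and 102 and 86.5 in knockouts. It was thus low in both controls and abundant in both knockouts, with no overlap. The means were 0.973 ± 0.237 (SD, n = 2) and 94.4 ± 11.2 (SD, n = 2), a 97.0-fold difference of mean FPKM. The log2 fold change was 5.60 (SE 0.13, limma adjusted p = 1.34e-05), or 5.79 above the median of all genes. It was the rise ranked 7 of 13609. The size depends on the small control values, and with a pseudocount of 0.1 it was 6.47. In bulk epidermis, a change in the number of cells of a type and a change in RNA per cell cannot be told apart. The genes whose profile over the 4 libraries lay nearest that of Il33, by Euclidean distance of log2(FPKM + 1), were Lce3b (distance 0.468), a cornified envelope gene, Slpi (0.602), a secreted protease inhibitor, and Sprr2i (0.857), a small proline-rich protein gene. Lce3b had FPKM of 1.20 and 1.34 in controls and 119.9 and 104 in knockouts.

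The 3 IL-36 agonists, which act on keratinocytes and dendritic cells through IL1RL2, all rose, by different amounts. Il1f6 (ENSMUSG00000026984.4, chromosome 2, 24215418 to 24225702, plus strand), which encodes IL-36α, had FPKM of 15.3 and 17.2 in controls and 96.5 and 72.0 in knockouts. Its mean was 5.19-fold higher (log2 fold change 2.29 ± 0.15 SE, limma adjusted p = 0.000355). Il1f6 was the lowest of the 3 agonists in both controls and stood beside Il1f9 in the first knockout. Il1f9 (ENSMUSG00000044103.4, chromosome 2, 24186476 to 24193568, plus strand), which encodes IL-36γ, had FPKM of 35.8 and 38.9 in controls and 96.4 and 100.5 in knockouts. Its replicates were the closest of the agonists, and the mean was 2.63-fold higher (log2 fold change 1.37 ± 0.085 SE, limma adjusted p = 0.000315). Il1f8 (ENSMUSG00000026985.1, chromosome 2, 24153161 to 24160519, plus strand), which encodes IL-36β, had FPKM of 20.8 and 18.9 in controls and 37.2 and 32.3 in knockouts. This was the smallest of the called differences, 1.75-fold (log2 fold change 0.78 ± 0.11 SE, limma adjusted p = 0.00371). The call of Il1f8 was lost without the second control library (limma adjusted p = 0.0542, range over all alternatives 0.00106 to 0.0542). The 95% intervals of the log2 fold changes were 1.93 to 2.66 for Il1f6, 1.17 to 1.58 for Il1f9 and 0.52 to 1.03 for Il1f8, so they did not overlap. Among all genes, the rises of Il1f6, Il1f9 and Il1f8 ranked 94, 264 and 611.

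**Figure D2:**
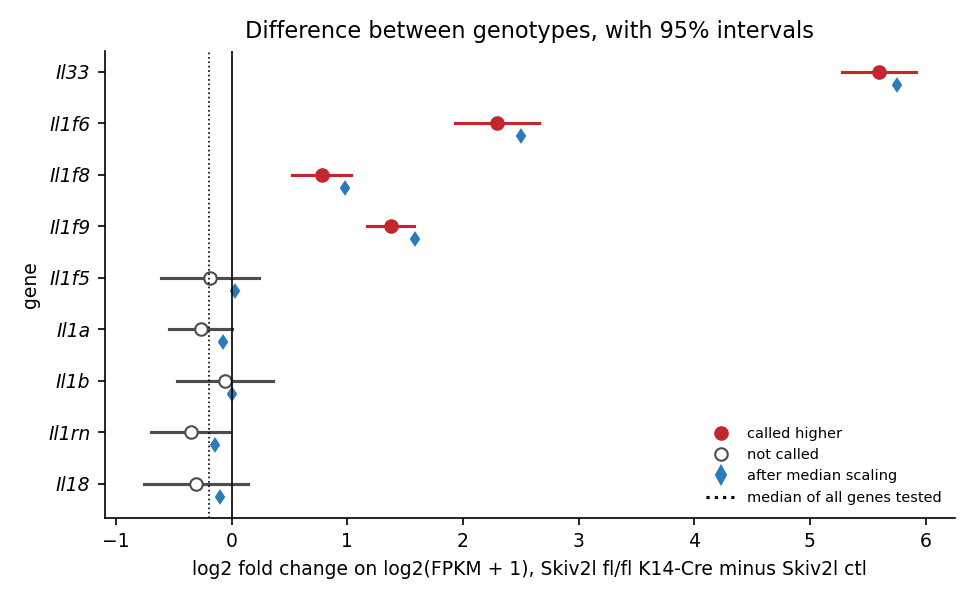
Log2 fold change of each member on log2(FPKM + 1), Skiv2l fl/fl K14-Cre minus Skiv2l ctl, with its 95% interval from limma (2 pups per genotype). Red points were called higher and open points were not called, blue diamonds give the value after median scaling, and the dotted line is the median of all genes tested, -0.20. Il33 lies at 5.60, the IL-36 agonists between 0.78 and 2.29, and the other 5 members between -0.35 and -0.06.

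The antagonists did not pass the test. Il1f5 (ENSMUSG00000026983.10, chromosome 2, 24276954 to 24283426, plus strand), which encodes IL-36Ra, was the most abundant member in every library, with FPKM of 226 and 239 in controls and 246 and 169 in knockouts. One knockout was above both controls and the other below both (log2 fold change -0.19, 95% interval -0.61 to 0.23, limma adjusted p = 0.419). After median scaling the sign of Il1f5 turned (0.025). Il1rn (ENSMUSG00000026981.15, chromosome 2, 24336853 to 24351494, plus strand), which encodes IL-1Ra, had FPKM of 35.8 and 37.7 in controls and 32.8 and 24.7 in knockouts. Both knockouts were below both controls, as for 55.3% of all genes tested (log2 fold change -0.35, limma adjusted p = 0.0952).

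Il18 and the IL-1 agonists were not called either. Il18 (ENSMUSG00000039217.13, chromosome 9, 50554827 to 50581840, plus strand) had FPKM of 37.1 and 39.3 in controls and 37.6 and 24.8 in knockouts (log2 fold change -0.31, limma adjusted p = 0.225). The first knockout lay between the controls, so the groups overlapped. Il1a (ENSMUSG00000027399.1, chromosome 2, 129299610 to 129309972, minus strand), the IL-1 agonist that keratinocytes hold as an active precursor, had FPKM of 9.08 and 9.87 in controls and 8.27 and 7.17 in knockouts (log2 fold change -0.27, limma adjusted p = 0.112). Both knockouts were below both controls. Il1b (ENSMUSG00000027398.13, chromosome 2, 129364570 to 129371139, minus strand), chiefly a cytokine of activated myeloid cells, was the lowest member in every library, with FPKM of 0.506 and 0.288 in controls and 0.452 and 0.237 in knockouts. The groups overlapped, the log2 fold change was -0.06 (95% interval -0.47 to 0.36, limma adjusted p = 0.818), and its sign turned under quantile normalization (0.10).

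Knockout 2 gave the lower value of the knockout pair for 8 of the 9 members, all but Il1f9, and it was the library with fewer genes above an FPKM of 0.5. The share of all genes tested that were lower in knockout 2 was not counted, so this need not be particular to the members. Without knockout 1, the test called Il18, Il1rn and Il1f5 lower (log2 fold changes -0.60, -0.55 and -0.45). Lower calls were common over all genes tested in that fit, so these need not be particular to the family. Over all alternatives the adjusted p ranged from 0.0116 to 0.864 for Il18, from 0.0139 to 0.441 for Il1rn and from 0.0260 to 0.924 for Il1f5. Among the alternatives run, these 3 calls were made only with that library left out.

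The antagonist Il1f5 made up less of the family's transcripts in both knockouts, where the sum was larger, and the agonists that rose made up more. Il1f5 itself was not called, so its smaller share does not by itself mean a fall in its level. The FPKM of the 9 members summed to 381 and 402 in controls and 658 and 518 in knockouts. Il1f5 alone made up 59.3% and 59.4% of the sum in controls but 37.4% and 32.7% in knockouts. Il33, Il1f6, Il1f8 and Il1f9 together made up 19.1% and 18.9% in controls and 50.6% and 56.3% in knockouts. These 4 members were put together because they rose, so the shift in their share is a description. The ratio of the 3 IL-36 agonists to Il1f5 was 0.318 and 0.313 in controls and 0.935 and 1.21 in knockouts. The difference in its log2, with 1 added to both terms as for the other ratios, was 1.74, and the exact two-sided permutation p was 0.333, the smallest that 2 pups against 2 allow (0.417 after adjustment over the 5 ratios examined). For IL-1 the ratio of Il1a and Il1b to Il1rn was 0.268 and 0.269 in controls and 0.266 and 0.300 in knockouts, so the groups overlapped (log2 difference 0.09, exact permutation p = 1).

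**Figure D3:**
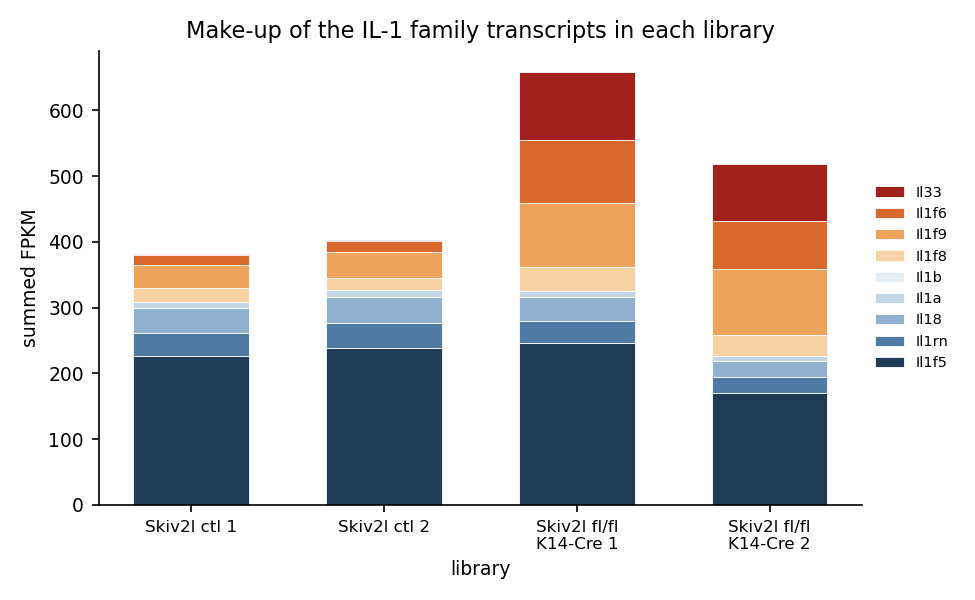
Summed FPKM of the 9 members in each library, stacked by gene, 1 bar per pup. The blue segments (Il1f5, Il1rn, Il18, Il1a, Il1b) fill most of the control bars, and the warm segments (Il1f8, Il1f9, Il1f6, Il33) make up 50.6% and 56.3% of the Skiv2l fl/fl K14-Cre bars.

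The 4 IL-36 genes and Il1rn lie in 1 cluster on chromosome 2 that spans 198 kb and holds 6 protein-coding genes. The order is Il1f8, Il1f9, Il1f6, Il1f5, Il1f10 and Il1rn. The 3 genes that rose are neighbors at one end of it, within the first 62.3 kb of start sites. Il1f10, which encodes IL-38, another cytokine of the family, lies 138 kb from the start of Il1f8 and had FPKM of 4.62 and 5.46 in controls and 2.65 and 1.86 in knockouts. It was called lower (log2 fold change -0.90 ± 0.16 SE, limma adjusted p = 0.00940), a call lost with either control left out. Psd4, the next coding gene beyond Il1rn, was not called (log2 fold change -0.30, limma adjusted p = 0.184), but was called lower without knockout 1 (-0.54, limma adjusted p = 0.020, range over all alternatives 0.020 to 0.657). Hnmt, the nearest tested gene on the other side, was not called either (-0.28, limma adjusted p = 0.294). Il1a and Il1b lie elsewhere on chromosome 2, 54.6 kb apart.

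**Figure D4:**
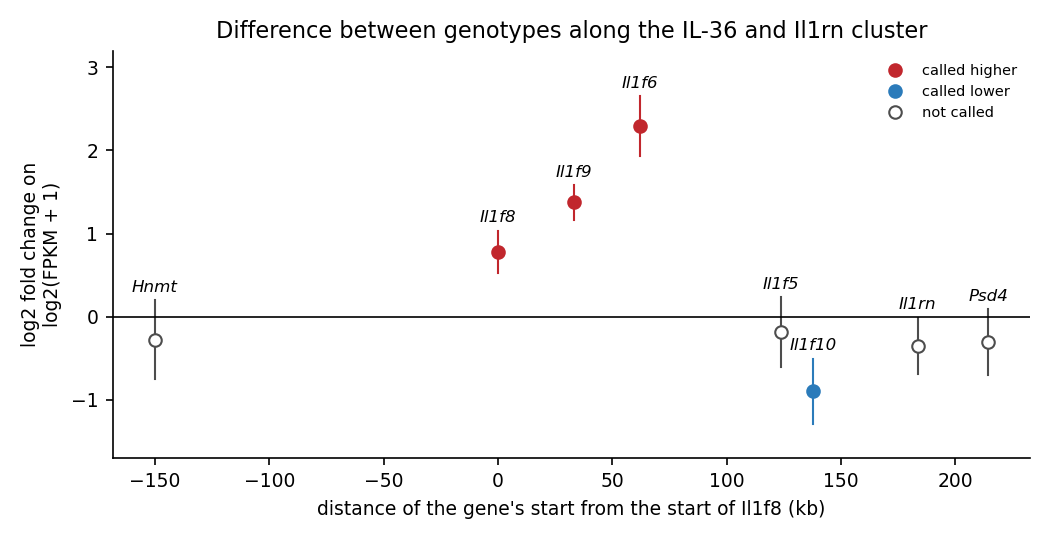
Log2 fold change, Skiv2l fl/fl K14-Cre minus Skiv2l ctl, with its 95% interval (limma, 2 pups per genotype), for the tested coding genes of the cluster and its neighbors, by the distance in kb of each gene's start from that of Il1f8. Il1f8, Il1f9 and Il1f6 (red) were called higher, Il1f10 (blue) lower, and Il1f5, Il1rn, Psd4 and Hnmt (open) were not called.

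Of 12 receptors, binding proteins and related genes, which included Il1f10, 7 were tested, with 1 called higher and 2 lower. Over all genes tested the shares were 8.99% higher and 25.4% lower, so these small counts are near that background. Il1rl2, the receptor of the IL-36 cytokines, had FPKM of 25.5 and 28.3 in controls and 42.2 and 42.7 in knockouts (log2 fold change 0.64 ± 0.089 SE, limma adjusted p = 0.0040). Receptor and agonists of the IL-36 branch were thus both higher in the same libraries, although the call of Il1rl2 was lost without the first control. Il1rap, the shared signaling chain, had FPKM of 12.3 and 13.6 in controls and 8.97 and 9.07 in knockouts (log2 fold change -0.47 ± 0.099 SE, limma adjusted p = 0.0155). That call was lost after median scaling (limma adjusted p = 0.0837, range over all alternatives 0.00967 to 0.133) and with either control left out.

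The IL-33 receptor was close to 0 throughout: Il1rl1 had FPKM of 0.0170 and 0.0118 in controls and 0.0380 and 0 in knockouts. Il33 thus rose in libraries where its receptor lay below the filter. The IL-18 receptor chains Il18r1 and Il18rap were also below the filter, at FPKM of 0.0671 to 0.346 over all 4 libraries. Il1r1, the IL-1 receptor, had FPKM of 7.13 and 8.42 in controls and 6.32 and 4.98 in knockouts (log2 fold change -0.40, limma adjusted p = 0.0726). The decoy receptor Il1r2 was at 16.0 and 17.0 in controls and 17.1 and 19.3 in knockouts (0.13, limma adjusted p = 0.339). Il18bp, which binds IL-18, was at 4.61 and 4.29 against 3.51 and 2.19 (-0.52, limma adjusted p = 0.0693). Sigirr, an inhibitory receptor, was at 6.38 and 6.64 in controls but at 8.45 and 2.02 in the knockouts, which lay on opposite sides (-0.49, limma adjusted p = 0.445). Without knockout 1, Il1r1, Il18bp and Sigirr were called lower, and Il1r1 also with TPM in place of FPKM (limma adjusted p = 0.0498, range over all alternatives 0.0409 to 0.342). The ratio of Il18 to Il18bp was 8.04 and 9.16 in controls and 10.7 and 11.4 in knockouts, and that of Il1r1 to Il1r2 was 0.445 and 0.495 in controls and 0.370 and 0.258 in knockouts. In both ratios the groups did not overlap (log2 differences 0.21 and -0.53, exact permutation p = 0.333 each). The neuronal accessory proteins Il1rapl1 and Il1rapl2 were at or near 0.

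All 18 genes of receptor signaling were tested, with 2 called higher and 5 lower, counts near the shares over all genes tested (8.99% higher and 25.4% lower). Myd88, the adaptor of these receptors, had FPKM of 17.4 and 17.1 in controls and 22.7 and 22.0 in knockouts (log2 fold change 0.35 ± 0.085 SE, limma adjusted p = 0.0234). Irak3, an inhibitory kinase-like protein, rose from 2.17 and 2.63 to 4.46 and 4.33 (0.67 ± 0.13 SE, limma adjusted p = 0.0110). The genes called lower, Tab3 (-0.51), Irak1 (-0.45), Tab1 (-0.44), Peli2 (-0.39) and Tab2 (-0.37), are a kinase (Irak1), partners of the kinase TAK1 and a ubiquitin ligase (Peli2) of the pathway. This split depended on the scaling: after median scaling 5 genes were called higher and 0 lower by limma (7 and 2 at an unadjusted p below 0.05). With either control left out, the calls of this list were lost, and the call of Tab1 was also lost without either knockout. Calls over all genes tested were also far fewer without a control, so that loss is not particular to these genes.

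Of 20 genes for the processing and release of these cytokines, 11 were tested, with 1 called higher and 3 lower. These counts are near the shares over all genes tested, 8.99% higher and 25.4% lower. Casp1, the protease that activates IL-1β and IL-18, had FPKM of 4.995 and 5.21 in controls and 1.68 and 1.52 in knockouts. Both knockouts were well below both controls (log2 fold change -1.23 ± 0.12 SE, limma adjusted p = 0.00122). Pycard, the inflammasome adaptor ASC, was at 22.6 and 24.3 in controls and 17.5 and 14.5 in knockouts (-0.53, limma adjusted p = 0.0169), and Aim2, a DNA sensor of the inflammasome, was also called lower (-0.69, limma adjusted p = 0.0288). The calls of Pycard and Aim2 were lost after median scaling and with either control left out, and that of Aim2 also without knockout 2. Capn2, a calpain subunit of the protease family that cleaves the IL-1α precursor, was at 14.3 and 15.8 in controls and 66.9 and 54.1 in knockouts (1.93 ± 0.12 SE, limma adjusted p = 0.000346). Capn1, another calpain of the list, was more abundant, at 96.0 and 100 in controls and 91.3 and 91.7 in knockouts. It was not called (-0.10, limma adjusted p = 0.343, and 0.11 after median scaling). Nlrp3, Nlrp1a, Nlrp1b and Nlrc4 were below the filter in all 4 libraries.

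Of 20 genes that IL-1 family cytokines are known to induce in keratinocytes, 13 were tested, with 8 called higher and 1 lower (8.99% and 25.4% over all genes tested). This list too was chosen with earlier results of these data known, so its count is a description. Defb4, Lcn2, Ptgs2, Ccl20 and Cxcl1 passed the filter through the knockouts alone, so that 4 of the 8 higher calls come from genes that entered because they were high there, and Tnf passed through the controls alone. Of the 7 genes that passed in both genotypes, 4 were called higher (Nfkbiz, Zc3h12a, S100a8 and S100a9) and 0 lower by limma. S100a8 and S100a9, the subunits of calprotectin, rose from FPKM of 0.370 and 1.27 to 775 and 804, and from 0.928 and 1.61 to 974 and 965. Defb4, a β-defensin, was at 0.101 and 0 in controls and at 30.4 and 24.5 in knockouts. Nfkbiz, the transcriptional cofactor IκBζ downstream of IL-36, rose from 10.001 and 7.93 to 35.7 and 31.9 (log2 fold change 1.81 ± 0.13 SE, limma adjusted p = 0.000471). Ptgs2, a prostaglandin synthase, rose from 0.436 and 0.153 to 8.99 and 3.43 (2.37 ± 0.37 SE, limma adjusted p = 0.00577), a call lost with either control left out. Tnf was called lower (-0.54, limma adjusted p = 0.0306), from 1.04 and 0.966 to 0.423 and 0.332, a call lost after median scaling (limma adjusted p = 0.0590, range over all alternatives 0.0154 to 0.0968) and with any 1 library left out. Il6, Csf2 and Cxcl5 were listed at 0 in all 4 libraries, and Cxcl1 was at 0.249 and 0.0274 in controls and 0.796 and 0.217 in knockouts (0.38, limma adjusted p = 0.231). These genes respond to many signals, and which of them acted on these genes was not tested.

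**Figure D5:**
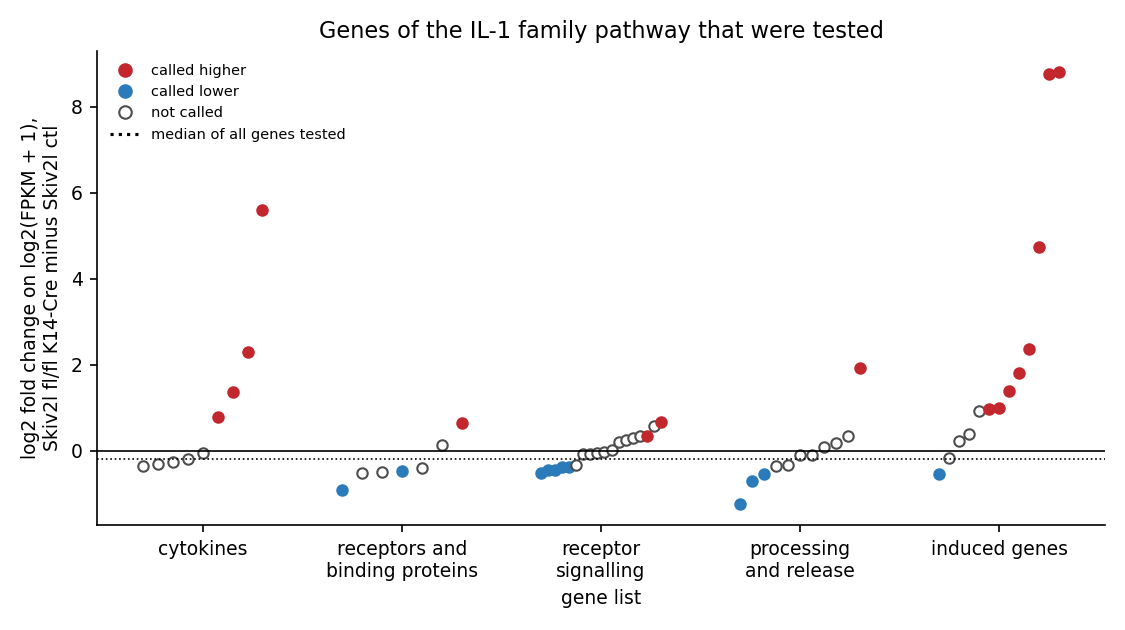
Log2 fold change, Skiv2l fl/fl K14-Cre minus Skiv2l ctl, on log2(FPKM + 1), of the tested genes of the cytokine, receptor, signaling, processing and induced gene lists, 1 point per gene in order of its value. Red points were called higher, blue lower and open points not called (limma). The receptor, signaling and processing lists lie mostly within 1 of 0, and S100a8 and S100a9 stand at 8.81 and 8.76 in the induced list.

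Markers of the other cells that epidermal preparations can hold moved as follows, to be read beside the 8.99% of all genes tested called higher and the 25.4% called lower. The 4 general leukocyte markers summed to FPKM of 20.8 and 21.4 in controls and 12.6 and 10.2 in knockouts, with 3 called lower, Ptprc, Laptm5 and Coro1a. The calls of Ptprc and Laptm5 were lost with either control left out, and that of Coro1a without the first control. Calls over all genes tested were far fewer in those fits too. Of 5 tested genes of Langerhans and dendritic cells 4 were called lower, led by H2-Ab1 (-1.53), Cd74 (-1.51) and H2-Aa (-1.37), and Cd207, the langerin gene of Langerhans cells, was at 0.0417 or less in each library. Of 11 neutrophil markers 2 were tested, and both passed the filter through the knockouts alone. Cxcr2 was at FPKM of 0.127 and 0.208 in controls and 6.51 and 5.56 in knockouts, and Stfa2l1 at 0.247 and 0.314 in controls and 3.66 and 4.36 in knockouts. The other 9 were below the filter. Ly6g and Elane were listed at 0 in all 4 libraries, and Mpo was at most 0.0615, Retnlg at most 0.0973 and Mmp8 at most 0.234. Csf3r was at 0.119 and 0.462 in controls and 0.315 and 0.461 in knockouts. Of 8 tested monocyte and macrophage genes 1 was called lower, Csf1r (-0.86). Of the 5 tested T cell genes limma called 0, and 1 was lower at an unadjusted p below 0.05. Mast cells and endothelial cells had 1 tested marker each, Kit and Pecam1, not called. The other 6 mast cell and 5 endothelial markers were below the filter, so the tested marker alone says little about either cell type. Of 5 tested fibroblast genes Dcn (-1.60) and Col1a2 (-0.61) were called lower, while Col1a1, Col3a1 and Pdgfra were not called. Pdgfra, which passed the filter through the knockouts alone, went the other way, from FPKM of 0.299 and 0.250 to 0.789 and 0.668. Its log2 fold change was 0.44 (limma adjusted p = 0.0601). It was called higher after median scaling and quantile normalization (limma adjusted p = 0.0470 and 0.0253). Of 6 melanocyte genes Tyrp1 (0.83) was called higher. After median scaling the calls of Laptm5 among the leukocyte markers, Mfge8 among the dendritic cell genes and Col1a2 were lost (limma adjusted p = 0.0816, 0.108 and 0.0783), as they were under quantile normalization. The calls of Csf1r, Col1a2 and Tyrp1 were lost without the second control and without knockout 2, and those of Col1a2 and Tyrp1 also without the first control. Of the 9 keratinocyte genes Dsg3 (2.27) and Krt14 (2.05) were called higher and Krt15 (-1.89), Lor (-0.92) and Krt1 (-0.51) lower, the call of Krt1 being lost after median scaling and with any 1 library left out, and so markers of keratinocyte layers moved in the same libraries as the members. The part of these shifts in the values of Il33, the IL-36 genes, Il1b and Casp1 was not tested.

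Little sequence was shared with other genes. Of the 75-base stretches in the annotated transcripts of the members, 0 occurred in another gene for 8 members, and 1 of 1574 did for Il1f9. On the opposite strand, Gm14023 shares 222 exon bases (11.2%) with Il1a and Il1bos shares 25 (1.31%) with Il1b. Because the sources used here do not state whether the counting used strand, reads of these pairs cannot be told apart with certainty. Gm14023 was at FPKM of 0.490 to 0.700 in the 4 libraries and Il1bos at 0.101 to 0.228.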

How the data were processed

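Total RNA of the epidermis of 4 mouse pups was sequenced, and the authors processed the reads with an institutional workflow. The aligner and its version are not given in the sources used here, and the submitters' notes name GRCm38. The FPKM deposited by the authors accounts for transcript length and sequencing depth. The TPM deposited by the authors served as an alternative, and the coverage signal deposited by the authors gave the depth. Counting intervals need read counts and are not given. FPKM was summed per gene identifier. Of 21921 protein-coding genes (GENCODE M21, by identifier), the 13609 above an FPKM of 0.5 in at least 1 library entered limma 3.58.1 (R 4.3.3, lmFit and eBayes with trend) as log2(FPKM + 1). Tests were two-sided and Benjamini-Hochberg adjustment covered every gene tested. Single ratios were tested by exact permutation over samples. The test was checked on simulated data. Nothing states that the pups of a genotype came from separate litters, so p-values measure the spread between these pups.

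The genes named were all members, all receptors and binding proteins, up to 4 called genes with the largest change of each other list plus Casp1, Pycard, Myd88 and Nfkbiz, the 3 genes nearest to Il33, the neighbors of the cluster and Skiv2l. Chosen after their values were seen were Peli2, Tab2, Cxcl1, Lcn2, Ccl20, Zc3h12a, Tnf, Csf2, Cxcl5, Il6, Krt1, Krt5, the inflammasome sensors and the markers below the filter, and the promoter motifs. Capn1, Pdgfra, Col1a1, Col3a1, Kit and Pecam1 were likewise named after their values were seen. The members and lists were chosen with earlier results of these data known. The alternatives were a pseudocount of 0.1, FPKM above 1 in at least 2 libraries, no filter, all genes of the tables, TPM, scaling to the median, quantile normalization, eBayes without trend, a block for the replicate number and leaving out each library.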

Additional observations from a re-analysis of the deposited data

How the results depend on the processing

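The calls of Il33, Il1f6 and Il1f9 held under all alternatives, and that of Il1f8 under all but leaving out the second Skiv2l ctl library. Median scaling gave 1894 genes called higher and 1623 lower, against 1223 and 3455, and quantile normalization 1917 lower. Leaving out 1 library gave 497 to 1146 genes called higher and 805 to 3135 lower, the low counts being those without a control, and 0 to 3 members called lower. The same change gave log2 fold changes of -0.17 to 0.060 (0.058 without the first control) for Il1b, -0.45 to 0.081 for Il1f5 and -1.32 to 0.33 for Sigirr, and log2 differences of -0.0044 to 0.18 for the ratio of Il1a and Il1b to Il1rn. Signs also turned for Il1b under quantile normalization (0.10) and for Il1f5 (0.025) and Krt5 (0.0011) under median scaling. Krt5, not called otherwise, was called lower under quantile normalization (-1.16, limma adjusted p = 0.000213) and with TPM (-0.26, limma adjusted p = 0.0464), its adjusted p reaching 0.994. The causes were not tested. Of 42 other called genes named, 22 lost the call without the first control, 21 without the second, 4 and 9 without the first and second knockout, 13 after median scaling, 11 after quantile normalization, 8 without the filter and 4 among all genes of the tables. Same-numbered pups did not deviate together over the genes tested (correlation -0.077). With 1 difference between pups per genotype, this cannot show whether the numbers pair the pups. With the replicate block, 1264 genes were called higher and 3393 lower, with the same 4 members and, among the named genes, Il18bp called lower in addition (limma adjusted p = 0.0347, range over all alternatives 0.0159 to 0.273). The ratio of Il33 to Il1rl1, whose log2 differed by 5.59 between genotypes, had no value under median scaling and quantile normalization, because Il1rl1 was not among the genes tested. Because Il1rl1 was near 0 and 1 was added to both terms, this ratio repeats the rise of Il33 (5.60) and holds nothing on the receptor. With a library left out, the lone library of its genotype is assumed to vary like the other pair. The number of pups limits all values.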
